A study of Homo sapiens with 3 samples.

Results

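The NRF2 pathway and the enzymes of glutathione metabolism were examined in 3 lines of C4-2B cells, a human castration-resistant prostate cancer cell line of LNCaP origin. A list of 36 genes was taken by symbol from the platform annotation. Of these, 35 were measured, by 70 probe sets that the annotation ties to 1 gene each, out of 19775 genes and 41097 such probe sets in the whole data set. FTH1, the ferritin heavy chain, had no probe set annotated to it here and was not analysed. A further 5 probe sets name NFE2L2 or SOD2 together with another gene and were kept apart.

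C4-2B parental cells, grown without drug and passaged beside the sublines, were set against C4-2B MDVR cells, kept in 20 µM enzalutamide, an antagonist of the androgen receptor, and against C4-2B AbiR cells, kept in 10 µM abiraterone acetate, an inhibitor of the androgen-producing enzyme CYP17A1. All 3 lines grew in the same serum-supplemented medium, and total RNA of each was hybridized to 1 Affymetrix HG-U133 Plus 2.0 array. Each resistant line is a single long-term culture kept in drug, and the sources do not state whether drug was present at harvest. Acute exposure, selection and drift of the line cannot be told apart. The comparison asks how expression in each resistant subline differs from that of the parental line.

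NRF2, the product of NFE2L2, is a transcription factor that switches on genes against oxidants and reactive chemicals. KEAP1 holds it in the cytoplasm and delivers it to a CUL3 ubiquitin ligase, and oxidants release it. In the nucleus NRF2 pairs with a small MAF protein at antioxidant response elements and induces the enzymes that make glutathione, recycle it and attach it to toxic compounds, together with the thioredoxin system, ferritin and several suppliers of NADPH. In prostate cancer the glutathione transferase gene GSTP1 is well known for silencing by promoter methylation.

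The deposited values are log2 values centred for each probe set, so they hold no expression level. Values of the same probe set can be set against each other between arrays, whereas levels of different genes cannot be compared. With 1 array per line there was no replicate error and no test, and every difference is a description of 2 arrays. As a measure of noise, the 45 probe sets for spiked bacterial RNA differed with an SD of 0.13 (log2) between MDVR and parental, 0.10 between AbiR and parental and 0.12 between both resistant lines, and by at most 0.35, 0.20 and 0.34. Probe sets of 1 gene differed from each other with a pooled SD of 0.35, 0.28 and 0.34. Each ± below gives the SD over a gene’s probe sets, a technical spread. Because levels are lost, the presence of prostate markers could not be checked. KLK3 and KLK2 were at least 2-fold lower in both resistant lines and the other 5 luminal markers measured were not, while no basal or neuroendocrine marker of the 5 measured differed by 2-fold. Relative to parental, ACTB signal near the 3′ end less that near the 5′ end was shifted by −0.22 (MDVR) and −0.12 (AbiR), and that of GAPDH by −0.047 and 0.061. The part of these shifts in the differences below was not tested.

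Most members were within 1.5-fold in each comparison, but the share that stayed within that bound was smaller among members than among all genes. In MDVR minus parental, 27 of 35 members (77.1%) were within 1.5-fold, against 17804 of all 19775 genes, and in AbiR minus parental 31 of 35 (88.6%), against 18621 genes (94.2%). The inhibitor of thioredoxin, TXNIP, was at least 2-fold higher in both resistant lines and was the sole member to reach that size in AbiR. The NADPH-producing malic enzyme gene ME1 was the sole member at least 2-fold lower, in MDVR.

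The counts were read against those over all genes measured. In MDVR, TXNIP passed 2-fold upward and ME1 downward (1 member or 2.86% each), against 1.65% and 1.67% of all genes. At 1.5-fold, 5 members (14.3%) were higher, namely HMOX1, TXNIP, FTL, GSTM3 and SOD2, against 4.81% of all genes, and 3 members (8.57%) were lower, namely SLC7A11, GSR and ME1, against 5.15%. In AbiR, 1 member (2.86%) was at least 2-fold higher and 0 were at least 2-fold lower, against 1.07% and 0.804% of all genes. At 1.5-fold, 3 members (8.57%) were higher, namely EPHX1, TXNIP and GSTK1, against 3.32%, and SLC7A11 alone was lower, against 2.52%. Between the resistant lines, 0 members differed by 2-fold in either direction, where 0.875% of genes were higher and 1.13% lower in MDVR than in AbiR. At 1.5-fold, KEAP1, GCLC, ME1 and GSTK1 were lower in MDVR than in AbiR (11.4%), against 3.96% of all genes, and 0 members were higher, against 2.77%. Just inside that bound lay HMOX1, higher by 0.58, and EPHX1, at −0.58.

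The median difference of the 35 members was 0.083 in MDVR, 0.037 in AbiR and 0.099 for MDVR minus AbiR, and over all genes it was 0.044, −0.011 and 0.054. With the arrays centred on hybridization controls the AbiR median was −0.043 over the members and −0.091 over all genes, so that both moved down together. Members went both ways, with 21 higher and 14 lower in MDVR and 20 higher and 15 lower in AbiR. Of all 19775 genes, 11350 were higher and 8392 lower in MDVR, and 9371 were higher and 10357 lower in AbiR. The 3 comparisons come from 3 arrays and share them, so a high or low value on the parental array moves both differences from parental.

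**Figure D1:**
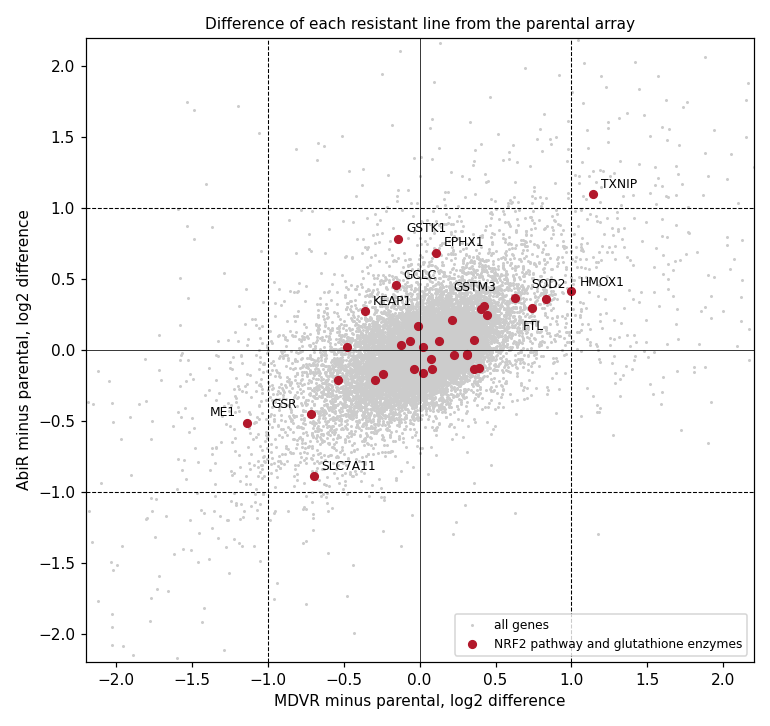
Each point is 1 gene, placed by how far it lay from parental (log2 difference) in the MDVR line on the x axis and in the AbiR line on the y axis, with the 35 measured members in red, the other genes in grey and dashed lines at 2-fold. TXNIP lies beyond 2-fold on both axes at 1.14 and 1.10, ME1 beyond it on the x axis alone at −1.14, and 135 genes fall outside the plotted range of ±2.2.

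The transcription factor gene and its sensor were read first. NFE2L2 had differences of −0.036 ± 0.19 in MDVR and −0.13 ± 0.12 in AbiR over 3 probe sets, both smaller than or near their spread. KEAP1, read by 1 probe set, had a centred value of 0.012 in parental, −0.35 in MDVR and 0.28 in AbiR. Its differences from parental were −0.36 and 0.27, about as large as the pooled SD between probe sets of a gene (0.35 and 0.28), and no second probe set was there to compare. MDVR minus AbiR was −0.63 for KEAP1, 1.55-fold lower, a difference below which 3.35% of all genes lay.

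Among enzymes of detoxification and stress, HMOX1 had the largest difference. HMOX1 encodes haem oxygenase 1, which breaks down haem and releases iron, and its 1 probe set was at −0.24 in parental, 0.76 in MDVR and 0.18 in AbiR. It was 1.99-fold higher in MDVR (0.996 on the log2 scale), just short of 2-fold, and 1.33-fold higher in AbiR (0.41). NQO1, the quinone reductase often taken as the model target of NRF2, had another pattern. NQO1 was at 0.076, 0.0011 and −3.0e-05 on its 3 probe sets in parental, at −0.33, −0.61 and −0.43 in MDVR, while AbiR had 0.042, 0.058 and 0.039. The MDVR array was thus lowest on all 3 probe sets, by −0.48 ± 0.12, while AbiR and parental were within 0.020 ± 0.048. EPHX1, the microsomal epoxide hydrolase, was instead highest in AbiR, at 0.29, against −0.40 in parental and −0.29 in MDVR, and was 1.61-fold higher in AbiR than in parental (0.69). OSGIN1, a growth inhibitor induced by oxidative stress, had differences of 0.21 in both lines.

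Genes for glutathione synthesis and cystine uptake had lower or mixed values. SLC7A11, the exchanger that brings in cystine for glutathione synthesis, was at 0.23, 0.38 and 0.44 on its 3 probe sets in parental, at −0.23, −0.38 and −0.44 in MDVR, while AbiR had −0.58, −0.43 and −0.61. Each of the 3 probe sets was highest in parental and lowest in AbiR. SLC7A11 was 1.62-fold lower in MDVR (−0.70 ± 0.22) and 1.85-fold lower in AbiR (−0.89 ± 0.14), where 0.986% of all genes had a lower difference.

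GCLC and GCLM encode the catalytic and the modifier subunit of glutamate-cysteine ligase, which makes the precursor of glutathione. GCLC was at −0.28, −0.22 and −0.29 in parental, at −0.077, −0.75 and −0.42 in MDVR, while AbiR had 0.077, 0.22 and 0.29. All 3 probe sets were highest in AbiR, by 0.46 ± 0.12 over parental, whereas in MDVR they went both ways (−0.15 ± 0.37). GCLM was not higher in AbiR as its partner was, with differences of −0.29 ± 0.27 in MDVR and −0.22 ± 0.24 in AbiR.

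GSR, the reductase that returns oxidized glutathione to its reduced form, was lower in both lines. Its probe sets were at 0.30 and 0.37 in parental, −0.17 and −0.59 in MDVR, and −0.15 and −0.082 in AbiR, each highest in parental. The differences were −0.72 ± 0.35 in MDVR and −0.45 ± 0.0044 in AbiR. The peroxidases, which use glutathione to reduce peroxides, stayed within 1.5-fold. GPX2, the gastrointestinal form, had the largest of their differences, at 0.44 ± 0.048 in MDVR and 0.25 ± 0.19 in AbiR, with both probe sets higher in both lines. GPX1, the cytosolic form, was at 0.31 and −0.039, the secreted GPX3 at −0.064 ± 0.23 and 0.064 ± 0.0077, and GPX4, which reduces lipid peroxides in membranes, at −0.0083 and 0.16.

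**Figure D2:**
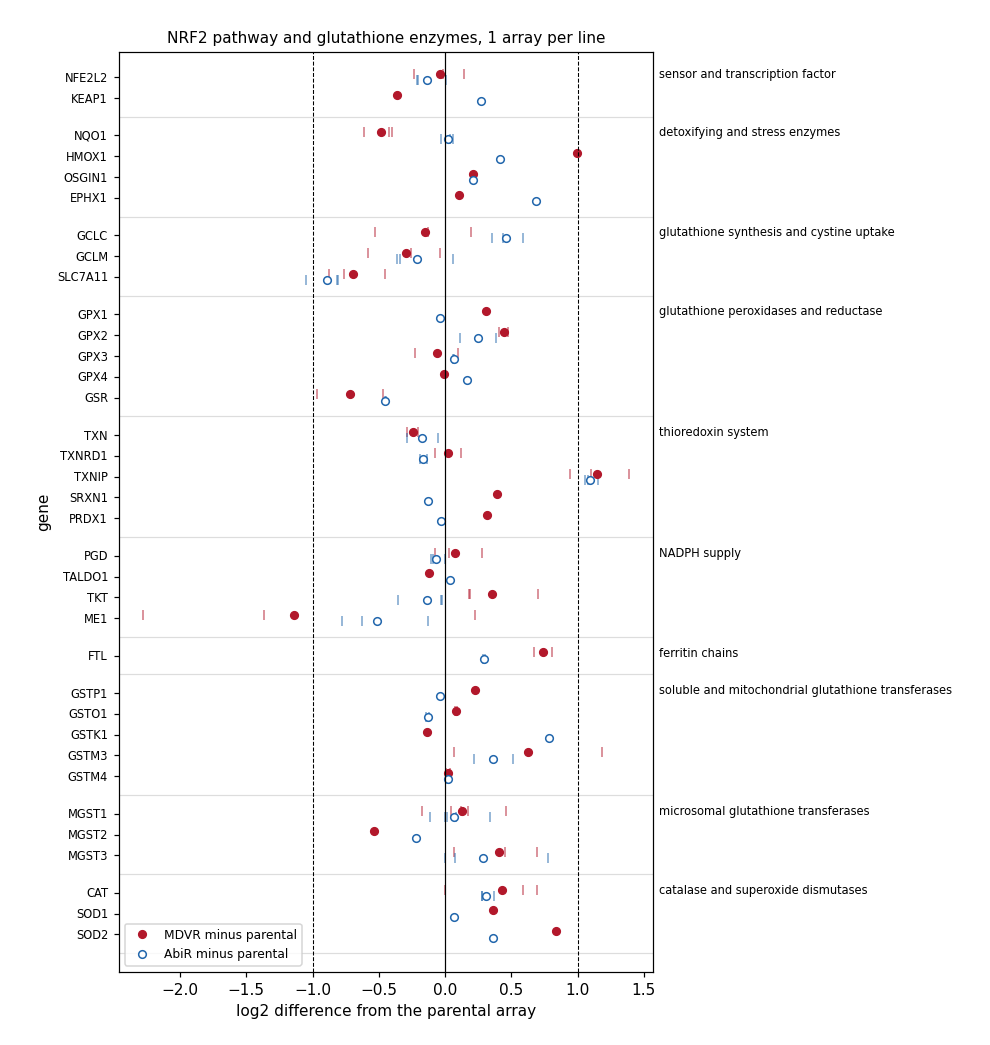
The x axis gives the log2 difference from parental for the 35 measured members grouped by role (y axis), with filled red circles for C4-2B MDVR, open blue circles for C4-2B AbiR, vertical ticks for single probe sets where a gene has several, and dashed lines at 2-fold. TXNIP lies right of the upper dashed line in both lines, ME1 left of the lower one in MDVR at −1.14, and the ME1 ticks spread from −2.28 to 0.23.

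In the thioredoxin system the gene that differed most was the inhibitor. TXNIP binds reduced thioredoxin and also restrains glucose uptake, and its transcription responds to glucose. Its 3 probe sets were at −1.23, −1.13 and −0.999 in parental, at 0.15, −0.028 and −0.055 in MDVR, while AbiR had −0.15, 0.028 and 0.055. The parental array was thus low on every TXNIP probe set and the resistant lines lay near each other. TXNIP was 2.21-fold higher in MDVR (1.14 ± 0.23) and 2.14-fold higher in AbiR (1.10 ± 0.052), and MDVR minus AbiR was 0.048 ± 0.23. Of all genes, 98.7% had a lower difference in MDVR and 99.1% in AbiR. All TXNIP probe sets have the suffix _s, a class that can match several transcripts, so no other kind of probe set reads this gene.

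The other 4 genes of the system stayed within 1.5-fold. Thioredoxin itself, TXN, was at −0.24 ± 0.061 in MDVR and −0.17 ± 0.16 in AbiR, and its reductase TXNRD1 at 0.021 ± 0.14 and −0.16 ± 0.035. SRXN1, the sulfiredoxin that repairs overoxidized peroxiredoxins, was at 0.39 in MDVR and −0.13 in AbiR, and the peroxiredoxin PRDX1 at 0.31 and −0.029, each by 1 probe set. TXN, TXNRD1, SRXN1 and PRDX1 were all below parental in AbiR by amounts within the largest bacterial control.

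A stretch of the TXNIP promoter is shown since TXNIP had the largest positive difference of the members in both lines. It covers 178 bases up to the transcription start in RefSeq, on the minus strand at chr1:145996580-145996757 of GRCh38.p14. The capitals mark a pair of CACGAG sites 5 bases apart, 88 bases before the start, the layout of the carbohydrate response element known in this promoter.

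TXNIP: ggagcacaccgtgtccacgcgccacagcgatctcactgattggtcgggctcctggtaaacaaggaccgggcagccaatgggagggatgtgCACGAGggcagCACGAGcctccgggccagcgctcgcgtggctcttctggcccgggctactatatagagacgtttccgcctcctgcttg

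These letters were chosen from the TXNIP promoter itself after its values were seen. Of 35116 RefSeq promoters, 2 hold the pair on either strand (0.0057%). None of this bears on which factor was active in these cells, as expression alone was measured.

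Of the enzymes that supply NADPH, ME1 differed and the pentose phosphate enzymes did so less. ME1, the cytosolic malic enzyme, makes NADPH from malate and is a target of NRF2. Its probe sets disagreed. The first ME1 probe set was at 0.71 in parental, −1.56 in MDVR and −0.066 in AbiR, and the second was at 0.68, −0.69 and 0.048. The third was at −0.0057, 0.22 and −0.14, in another order of the lines. On the first pair the order was parental, AbiR, MDVR from high to low, with MDVR lower than parental by −2.28 and −1.37 and AbiR lower by −0.78 and −0.63. The mean of all 3 was −1.14 ± 1.27 in MDVR, 2.20-fold lower with a spread larger than the difference, and −0.51 ± 0.34 in AbiR.

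PGD, which makes NADPH in the oxidative branch of the pentose phosphate pathway, was at 0.077 ± 0.18 in MDVR and −0.068 ± 0.057 in AbiR. Of the non-oxidative branch, TALDO1 was at −0.12 and 0.037 and TKT at 0.36 ± 0.30 and −0.14 ± 0.19. All 3 TKT probe sets were higher in MDVR, and MDVR minus AbiR ran from 0.21 to 1.05 over them. In AbiR they were at −0.034, −0.024 and −0.35 relative to parental, the first pair within the SD of the bacterial controls (0.10).

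The ME1 promoter is shown since ME1 had the largest negative difference of the members in MDVR. It holds a match to the core of the antioxidant response element, TGACNNNGC. The stretch of 227 bases ends at the transcription start in RefSeq and lies on the minus strand at chr6:83431052-83431278 of GRCh38.p14. The capitals mark the match, 137 bases before the start. A second match begins 11 bases after the start, outside this stretch.

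ME1: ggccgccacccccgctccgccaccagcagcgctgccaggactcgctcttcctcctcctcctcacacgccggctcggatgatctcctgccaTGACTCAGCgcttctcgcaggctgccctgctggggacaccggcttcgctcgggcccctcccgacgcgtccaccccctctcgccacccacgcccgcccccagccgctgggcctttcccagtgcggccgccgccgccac

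Of the ferritin chains, which store iron, FTL was measured. Its 2 probe sets were at −0.47 and −0.48 in parental, 0.21 and 0.32 in MDVR, and −0.18 and −0.19 in AbiR, and kept 1 order of the lines. FTL was 1.67-fold higher in MDVR (0.74 ± 0.094) and 1.22-fold higher in AbiR (0.29 ± 0.0077). Both probe sets have the suffix _x, which can match related sequences, and ferritin has many processed pseudogenes. A probe set annotated to 1 such pseudogene of the heavy chain, FTH1P5, was at 0.34 and 0.20, and is not counted for FTH1.

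Glutathione transferases attach glutathione to toxic compounds, and the soluble ones differed gene by gene. GSTK1, the mitochondrial and peroxisomal form, was at −0.39 in parental, −0.53 in MDVR and 0.39 in AbiR by 1 probe set. AbiR stood apart, 1.72-fold higher than parental (0.78) and 1.90-fold higher than MDVR, a MDVR minus AbiR difference of −0.92 that was the lowest of all members. GSTM3, a mu-class form, had disagreeing probe sets. One was at −0.53 in parental, 0.66 in MDVR and −0.018 in AbiR, and the other at −0.034, 0.034 and 0.18. The first gave 1.19 in MDVR and the second 0.068, with a mean of 0.63 ± 0.79, and the corresponding values in AbiR were 0.51, 0.22 and 0.36 ± 0.21. Mu-class genes are close copies of each other, so signal could be shared between them. GSTM4, of the same class, was at 0.020 ± 0.019 and 0.022 ± 0.012. GSTP1 was at 0.0059 in parental, 0.23 in MDVR and −0.029 in AbiR, which gives 0.22 and −0.035 relative to parental, and GSTO1, the omega-class form, was at 0.083 ± 0.012 and −0.13 ± 0.020.

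The microsomal forms, which sit in membranes, stayed within 1.5-fold. MGST2 was lower in both lines, at −0.54 and −0.22. MGST3 was at 0.40 ± 0.31 and 0.28 ± 0.43, with 1 probe set at 0.69 and 0.78 and the others smaller. MGST1 was at 0.12 ± 0.23 and 0.064 ± 0.17 over 5 probe sets.

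Catalase and the superoxide dismutases among the members, 3 genes, had positive differences in both lines. Other enzymes against superoxide and peroxide were mixed. GPX2 was higher in both lines, at 0.44 ± 0.048 and 0.25 ± 0.19. So was GPX8, of the other pathway genes, at 0.19 ± 0.30 and 0.28 ± 0.018. GPX1, GPX3, GPX4 and GPX7 had opposite signs in the lines. SOD3, of the other pathway genes, was at −0.058 in MDVR and −0.22 in AbiR by 1 probe set. PRDX3, PRDX4 and PRDX6 were below parental in both lines, and PRDX1 and PRDX2 went both ways. SOD2, the mitochondrial superoxide dismutase, was at −0.60 in parental, 0.24 in MDVR and −0.24 in AbiR by the 1 probe set annotated to it alone. It was 1.78-fold higher in MDVR (0.84) and 1.28-fold higher in AbiR (0.36). A further 4 probe sets, annotated to SOD2 together with the overlapping transcript SOD2-OT1, gave −0.093 to 0.49 in MDVR and −0.18 to 0.54 in AbiR, so that the value depends on the probe set read. Catalase, CAT, was at −0.48, −0.47 and 0.00 on its 3 probe sets in parental, at 0.11, 0.23 and 0.00 in MDVR, while AbiR had −0.11, −0.19 and 0.28. Its mean differences were 0.43 ± 0.37 and 0.31 ± 0.053. The cytosolic SOD1 was at 0.36 and 0.069, the latter smaller than the SD of the bacterial controls (0.10).

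**Figure D3:**
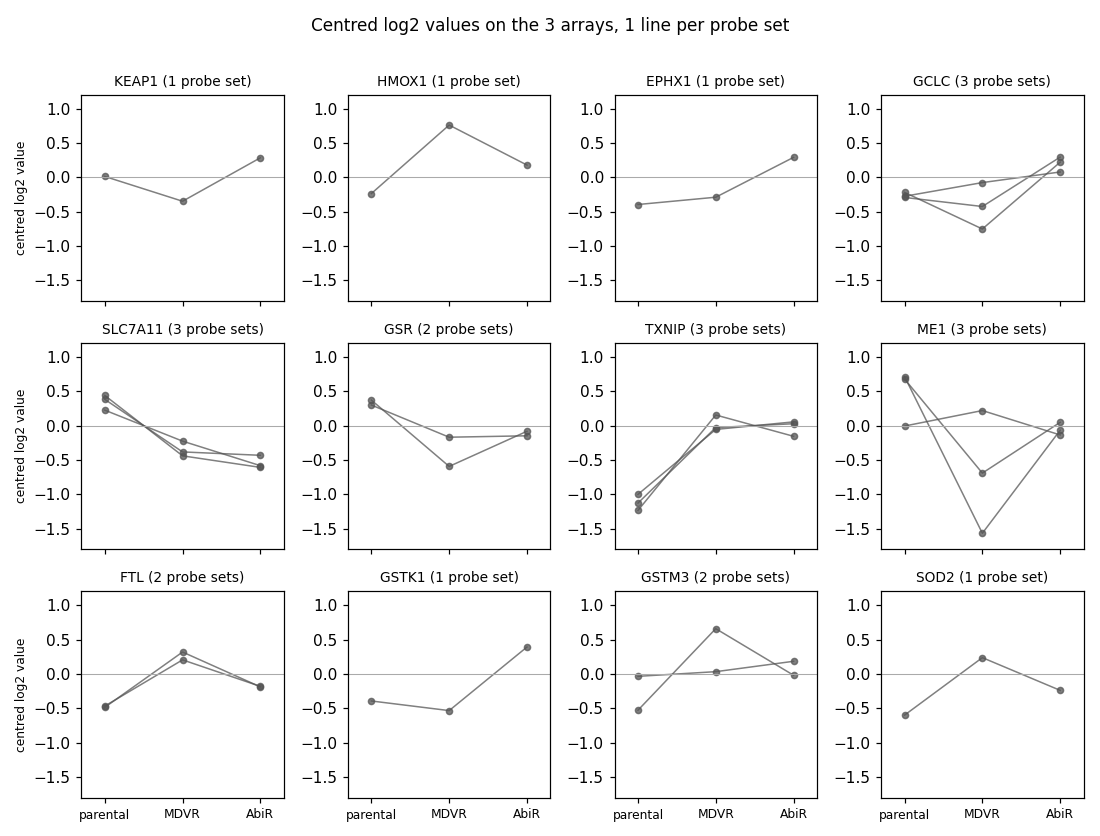
Centred log2 values (y axis) on the parental, MDVR and AbiR arrays (x axis) are drawn for the 12 members at least 1.5-fold different in a comparison, 1 line per probe set and 1 array per point. The TXNIP probe sets start near −1 in parental and meet near 0 in both resistant lines, the SLC7A11 probe sets descend from parental, and 1 of the 3 ME1 probe sets does not follow the other pair.

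A list of 73 other genes of the pathway was read beside the members, and 68 of them were measured. In MDVR, 5 of them (7.35%) were higher by 2-fold or more and 1 (1.47%) was lower by that much, against 1.65% and 1.67% of all genes. In AbiR 0 were higher and 1 (1.47%) was lower, against 1.07% and 0.804%. Their median was 0.084 in MDVR and 0.0045 in AbiR, where all genes had 0.044 and −0.011. The aldo-keto reductases AKR1C1, AKR1C2 and AKR1C3, which NRF2 induces and which also convert steroids, account for 3 of the 5. AKR1C3 was at −0.50 in parental, 3.52 in MDVR and −0.49 in AbiR, AKR1C2 had a difference of 2.00 ± 1.59 in MDVR and AKR1C1 of 1.06 ± 1.30, and these near-identical copies could share signal.

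The other genes at least 2-fold higher in MDVR were GSTM2 and SESN3. GSTM2, a mu-class transferase, was at 0.075 in parental, 1.77 in MDVR and −0.075 in AbiR by 1 probe set of suffix _x, a 3.24-fold difference. SESN3, a stress-induced sestrin, was higher in MDVR on all 7 probe sets, by 1.28 ± 0.64, and was at 0.075 ± 0.27 in AbiR. The other sestrins were higher in MDVR by 0.96 for SESN1 and 0.74 ± 0.034 for SESN2, and were at 0.48 and 0.28 ± 0.11 in AbiR. The efflux pump gene ABCC4 was the gene at least 2-fold lower in both lines, at −1.89 ± 1.02 and −2.15 ± 1.15, with all 4 probe sets lower in each.

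The partners and competitors of NRF2 stayed within 1.5-fold of parental, 10 of 10 in both lines, as did 17804 of all 19775 genes in MDVR and 18621 in AbiR. CUL3, the scaffold of the ligase that KEAP1 recruits, was at −0.27 ± 0.19 in MDVR and 0.0036 ± 0.16 in AbiR. Of the small MAF genes, MAFF was at 0.45 ± 0.49 in MDVR and 0.29 ± 0.41 in AbiR, and MAFG at 0.23 ± 0.051 and 0.0086 ± 0.063. BACH1, which competes with NRF2 for the same elements, was at −0.19 ± 0.61 and −0.12 ± 0.36, with 2 of its 3 probe sets higher in MDVR against the sign of the mean. SQSTM1, which draws KEAP1 into autophagy, was at 0.076 ± 0.35 and 0.15 ± 0.24. Of the related factors, NFE2L1 was at 0.48 ± 0.26 in MDVR and 0.13 ± 0.030 in AbiR, and NFE2L3 at 0.55 ± 0.036 and −0.27 ± 0.19.

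**Figure D4:**
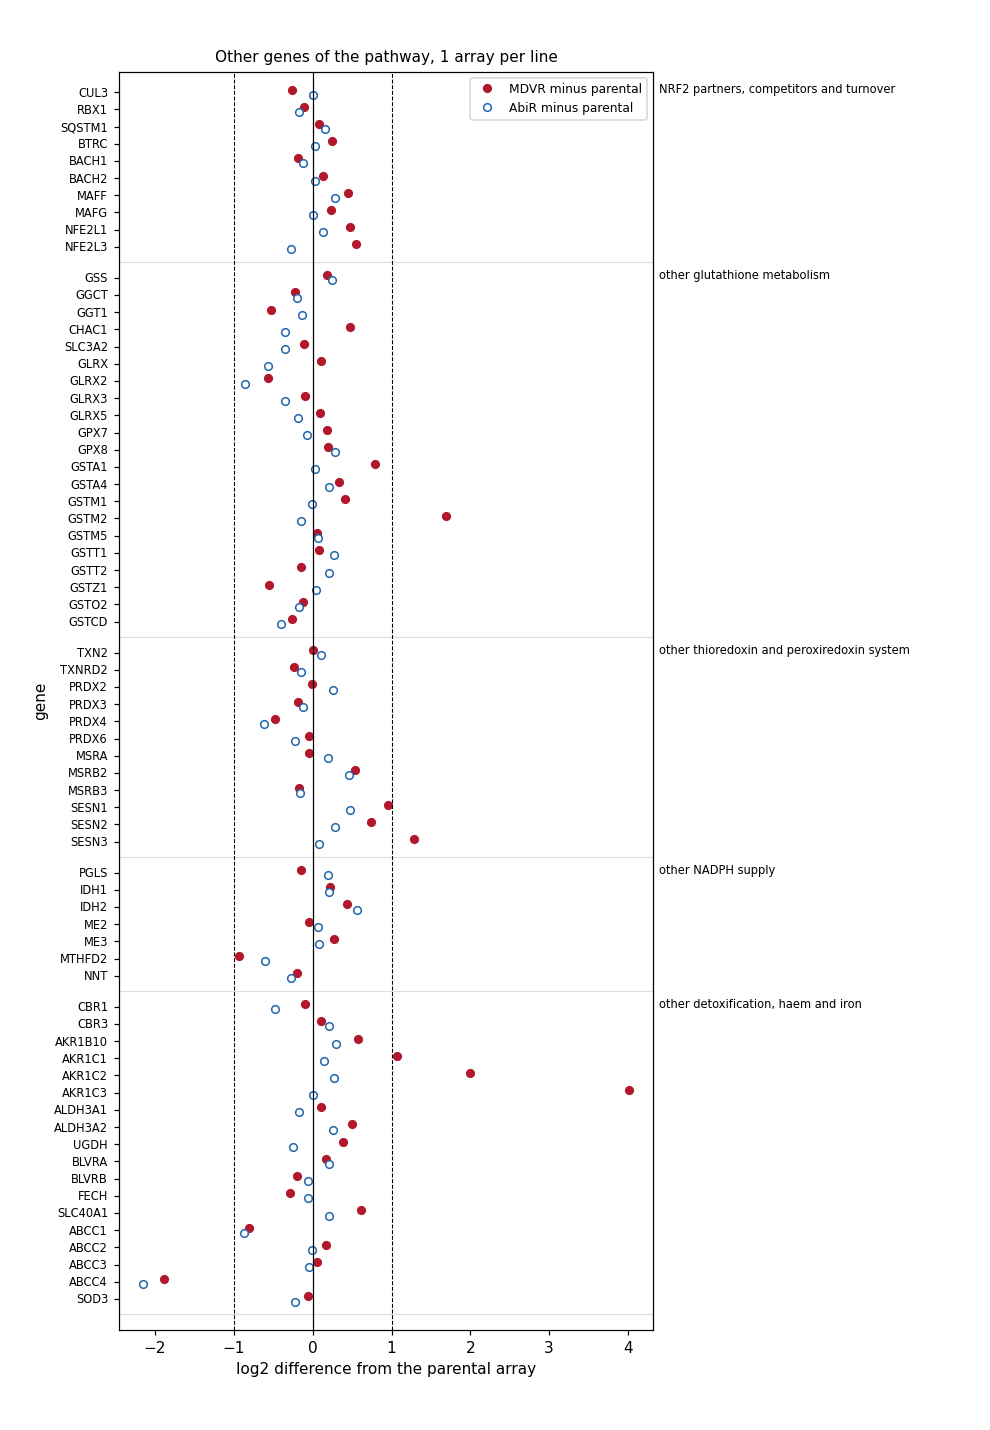
The x axis gives the log2 difference from parental for the 68 measured other genes of the pathway grouped by role (y axis), with filled red circles for C4-2B MDVR, open blue circles for C4-2B AbiR, 1 array per line, and dashed lines at 2-fold. AKR1C3 lies furthest right in MDVR at 4.02 and at 0.0055 in AbiR, and ABCC4 lies left of the lower dashed line in both.

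The promoters of the members were searched for the core of the antioxidant response element, TGACNNNGC, on both strands from 250 bases before to 50 bases after each start. RefSeq promoters of GRCh38.p14 were found for 29 members, 42 promoters in all, and 11 of these (26.2%) held at least 1 match, as did 13.3% of all 35116 promoters and 15.5% of the 84 promoters of other pathway genes. No entry was matched for HMOX1, SLC7A11, GSR, PRDX1, MGST2, SOD1 and FTH1, which enter no count or median here. The matching members were KEAP1, EPHX1, GCLM, GPX2, TXNRD1, PGD, ME1, GSTP1, GSTO1 and MGST1. A selection is shown with 10 bases on either side, as read along the gene, and the capitals mark the match, which is on the opposite strand in GCLM, GPX2 and PGD. The ME1 match shown reads the same 9 bases as that of GSTP1. ME1, TXNRD1, KEAP1 and GSTO1 each held more than 1 match, so the genes are not alike in all their matches.

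ME1: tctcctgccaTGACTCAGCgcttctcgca

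GSTP1: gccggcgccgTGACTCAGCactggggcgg

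GCLM: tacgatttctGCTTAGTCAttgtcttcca

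GPX2: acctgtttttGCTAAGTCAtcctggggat

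TXNRD1: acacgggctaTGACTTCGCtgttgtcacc

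PGD: cctcgccgggGCAATGTCAtctaggtgct

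These matches begin 137 bases before the start in ME1, 66 in GSTP1, 34 in GCLM, 122 in GPX2, 99 in TXNRD1 and 201 in PGD. The TXNRD1 match shown belongs to an upstream start of the gene, and another began 102 bases before a downstream start. The genes that carry the matches shown differed in both directions. In MDVR the 10 members with a match had a median of 0.080 and ran from −1.14 to 0.44, and the 19 with a promoter entry and no match had a median of 0.21 and ran from −0.48 to 1.14. The AbiR medians of these groups were −0.051 and 0.16. ME1 and GSTP1, with the same match, had differences of −1.14 ± 1.27 over disagreeing probe sets and 0.22 by 1 probe set in MDVR. Whether GSTP1 was expressed above background in these lines cannot be read from centred values. A match is a run of letters and not a measured site, and known elements can lie outside this window.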

How the data were processed

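Total RNA of 3 C4-2B lines was measured on 1 HG-U133 Plus 2.0 array each. The authors deposited log2 values for 54675 probe sets, made with RMA (named in the submitters' processing notes, with its version not given in the sources used here) and centred for each probe set, which removes the expression level. Signals near background limit how large a log2 difference can appear. Groups came from the sample titles.

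Gene names came from the annotation of the platform, brought up to date by gene ID (RefSeq, GRCh38.p14). The ID was found for 99.9% of the 41097 probe sets with 1 symbol. The 1801 probe sets with several symbols were left out, and 11777 are unnamed here. A gene was given the mean of its probe sets. Differences between arrays were counted as called at 2-fold or 1.5-fold, with no floor and no test. Counting was tested on simulated data.

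Members at least 1.5-fold different in a comparison, and other pathway genes at least 2-fold different, are given with values, besides pathway partners and sestrins chosen after their values were seen. The members and lists were chosen with earlier results of these data known. Python 3.11.15, pandas 2.3.3 and numpy 2.4.6 were used. The alternatives were the median over probe sets, leaving out suffixes _s, _x and _a, adding probe sets of several genes, 2 centrings of the arrays and, chosen after seeing the data, the probe set with the largest range.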

Additional observations from a re-analysis of the deposited data

Results flagged for a closer look

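In 4 of the 103 member and other pathway genes measured (3.88%), and in 1.30% of all genes, the resistant lines lay on either side of parental by more than the largest bacterial control in each comparison. Those controls measure technical noise and not the spread between cultures. The difference between the lines was not tested, since each has 1 array, and both differences use the same parental array. KEAP1 was at −0.36 in MDVR and 0.27 in AbiR, with MDVR minus AbiR at −0.63. NFE2L3, a relative of NFE2L2, was at 0.55 and −0.27, with 0.82 between the lines. CHAC1, which degrades glutathione, was at 0.47 and −0.35, with 0.82 between the lines. UGDH, which makes UDP-glucuronic acid, was at 0.39 and −0.25, with 0.63 between the lines. KEAP1, CHAC1 and UGDH have 1 probe set each. The AbiR differences of KEAP1, NFE2L3 and UGDH are smaller than the pooled SD of 0.28 between probe sets of a gene.

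A probe set left out of the gene values, 1 of the 4 annotated to both SOD2 and SOD2-OT1, was higher than parental by 0.49 in MDVR and 0.54 in AbiR, beyond the bacterial controls in both.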

How the results depend on the processing

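Of 210 values of the 12 members named above under an alternative, 188 moved by less than the SD of the bacterial controls, 22 moved by more, and 0 of those at least 1.5-fold different changed sign. Many of these values could not move that far, so the count of 188 is no measure of stability. Each centring shifted all genes by 1 amount smaller than that SD. KEAP1, HMOX1, EPHX1, GSTK1 and SOD2 have 1 probe set each, and SOD2 alone of the 12 has shared probe sets. Centring the arrays on their median or on hybridization controls moved none of these beyond that SD, but the AbiR median of all members turned from 0.037 to −0.043 with the latter, and that of all genes from −0.011 to −0.091. Without suffixes _s, _x and _a, 29 members remained measured, TXNIP had no value, and the members at least 2-fold higher became 0 in MDVR, 0 in AbiR and 1 (TKT) for MDVR minus AbiR. GSTM3 was then at 0.068 in MDVR, and with shared probe sets SOD2 was at 0.29. With the probe set of largest range, chosen after seeing the data, 2 members were at least 2-fold higher in MDVR (TXNIP and GSTM3), 1 was lower in AbiR (SLC7A11), and 1 was higher (TKT) and 1 lower (ME1) in MDVR than in AbiR, where the mean gave 0. This choice also raised the shares of all genes to 2.90%, 1.42%, 1.60% and 3.16% in these comparisons. ME1 was then at −2.28 in MDVR. At 1.5-fold the counts were 5 higher and 3 lower in MDVR, 3 and 1 in AbiR, and 0 and 4 for MDVR minus AbiR. The cause of these shifts was not tested. 1 array per line sets the precision.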
